A study of Mus musculus with 8 samples.

Results

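Initiation sites (ISs) of DNA replication that lay deep inside the introns of very long genes were examined in the CH12 line, which derives from a murine B cell lymphoma. Members were the ISs on 16 autosomes (chromosomes 10, 15 and 16 were left out) that lay inside a protein-coding gene with an annotated span of 300 kb or more, overlapped no exon, lay more than 10 kb from any protein-coding transcription start site (TSS) and had a GC content below 55%. The long genes Fhit, Wwox, Park2, Magi2, Macrod2, Lrp1b, Immp2l, Auts2, Dlg2, Csmd1, Tbc1d5 and Sema3d were left out of the set. The rule used no read density. It selected 2338 of 39116 ISs (5.98%) in the table of Rif1KO against WT and 9238 of 129937 ISs (7.11%) in the table of Rif1KO_shMcm6 against Rif1KO_shLacZ. Of 427 genes that met the rule, 367 held a member in the first table and 425 in the second.

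The maps came from SNS-seq, the sequencing of short nascent strands, in which short leading strands that carry an RNA primer survive digestion by an exonuclease and are sequenced. The 8 libraries were from asynchronous CH12 cultures in 4 groups of 2: WT cells, cells with a deletion of Rif1 (Rif1KO), and Rif1KO cells that carried a lentiviral hairpin against the bacterial gene LacZ as a control (Rif1KO_shLacZ) or against Mcm6 (Rif1KO_shMcm6) and had been selected with puromycin. Both hairpin groups therefore lacked Rif1, and both groups of the first table were without a hairpin. Per the labels the cells were cultured with IL4, CD40 and TGF beta stimulation, and which knockout clone supplied the SNS-seq libraries is not given in the sources used here. The tables held 1 pooled value per condition, in log2 RPM, so no test across replicates could be made, and the intervals below cover counting error or the spread over sites, never replicate error. PCR copies among the reads make counting intervals too narrow. WT and Rif1KO had 3350255 and 3724571 reads in ISs, and Rif1KO_shLacZ and Rif1KO_shMcm6 had 21071351 and 23602750. RPM (reads per 1000000 reads in the ISs of a table) were scaled in each table by itself, and no density was set against one of the other table. Cell identity markers could not be checked, because the series analysed here holds no expression values.

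RIF1 binds protein phosphatase 1 and opposes the kinase that fires origins, and it takes part in setting the time at which chromosome domains replicate. MCM6 is a subunit of the MCM2-7 helicase, which is loaded on DNA as the licence for an origin. Very long genes are often neuronal cell-surface genes in gene-poor domains that replicate late in cells that do not express them, and large transcribed genes of this kind are known as places where replication is difficult to complete.

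Sequences of 7 members are shown, because the named sites differ widely in their runs of G, a sequence feature linked to mouse ISs. Each is the central 300 bases of the site in the plus strand of NCBIM37 (mm9), and all lie in introns. Capitals mark each run of 3 or more G or 3 or more C, the latter being G on the other strand. The first pair had the lowest and highest fold change of the Rif1KO against WT table among members whose mean log2 RPM over both conditions was at or above the members' median.
Inpp4b, chr8:84460516-84460815: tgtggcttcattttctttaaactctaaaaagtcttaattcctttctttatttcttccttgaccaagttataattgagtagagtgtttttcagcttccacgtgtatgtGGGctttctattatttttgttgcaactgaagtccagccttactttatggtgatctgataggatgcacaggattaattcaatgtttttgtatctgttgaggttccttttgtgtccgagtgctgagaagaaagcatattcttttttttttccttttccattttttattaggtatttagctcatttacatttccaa
Supt3h, chr17:45083440-45083739: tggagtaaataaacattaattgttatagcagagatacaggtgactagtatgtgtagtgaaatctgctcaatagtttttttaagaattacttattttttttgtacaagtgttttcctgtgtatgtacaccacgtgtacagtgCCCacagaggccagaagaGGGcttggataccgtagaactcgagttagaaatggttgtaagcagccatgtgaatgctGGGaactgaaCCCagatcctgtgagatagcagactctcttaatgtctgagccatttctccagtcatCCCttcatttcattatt
The next pair had the lowest and highest fold change of the Rif1KO_shMcm6 against Rif1KO_shLacZ table by the same rule.
Dgki, chr6:37226826-37227125: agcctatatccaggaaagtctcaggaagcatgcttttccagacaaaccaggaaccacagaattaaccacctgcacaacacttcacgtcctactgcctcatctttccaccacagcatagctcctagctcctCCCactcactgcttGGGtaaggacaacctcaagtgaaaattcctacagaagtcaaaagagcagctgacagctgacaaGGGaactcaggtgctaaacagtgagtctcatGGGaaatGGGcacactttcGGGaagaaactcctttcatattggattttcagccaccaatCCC
Dgkb, chr12:39168130-39168429: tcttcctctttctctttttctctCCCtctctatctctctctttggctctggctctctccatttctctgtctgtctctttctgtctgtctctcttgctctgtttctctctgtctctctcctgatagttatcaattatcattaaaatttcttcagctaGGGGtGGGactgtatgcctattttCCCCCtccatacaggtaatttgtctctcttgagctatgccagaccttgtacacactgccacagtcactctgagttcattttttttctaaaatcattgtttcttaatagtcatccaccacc
The members with the highest control density in the first and in the second table were the following.
Gm20388, chr8:123430290-123430589: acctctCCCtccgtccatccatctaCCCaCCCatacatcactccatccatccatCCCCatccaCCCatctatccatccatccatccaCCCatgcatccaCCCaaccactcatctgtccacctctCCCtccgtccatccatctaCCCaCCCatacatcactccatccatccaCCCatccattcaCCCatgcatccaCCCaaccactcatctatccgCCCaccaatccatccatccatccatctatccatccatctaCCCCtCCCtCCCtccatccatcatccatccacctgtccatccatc
4930534B04Rik, chr12:92413962-92414261: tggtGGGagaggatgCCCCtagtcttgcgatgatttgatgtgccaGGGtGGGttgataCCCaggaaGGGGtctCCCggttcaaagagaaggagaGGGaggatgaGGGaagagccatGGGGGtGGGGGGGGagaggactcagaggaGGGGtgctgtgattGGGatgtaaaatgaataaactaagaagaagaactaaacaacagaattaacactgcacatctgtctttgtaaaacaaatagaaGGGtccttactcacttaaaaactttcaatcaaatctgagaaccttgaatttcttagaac
The window of the last site shown held the G-quadruplex motif, defined here as 4 runs of GGG or longer with gaps of 1 to 7 bases (N) on either strand.
Diap3, chr14:87302176-87302475: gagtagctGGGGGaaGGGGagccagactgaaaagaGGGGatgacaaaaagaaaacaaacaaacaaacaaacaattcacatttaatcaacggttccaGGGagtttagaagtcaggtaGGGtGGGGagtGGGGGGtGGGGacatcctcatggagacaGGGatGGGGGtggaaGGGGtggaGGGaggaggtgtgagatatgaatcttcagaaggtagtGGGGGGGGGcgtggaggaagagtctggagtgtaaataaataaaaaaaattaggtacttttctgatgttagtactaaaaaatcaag
The Inpp4b, Supt3h, Dgki and Dgkb windows had 1, 2, 5 and 2 runs of G and 0, 3, 2 and 2 runs of C. The Gm20388 window had 17 runs of C and no motif match. The Diap3 window had 13 runs of G, with a match of 22 bases.

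The G-quadruplex motif, in the letters given above, was found in the central 300 bases of 44.5% of members of the first table, against 50.2% of all ISs on the same autosomes. In the hairpin table it was found in 18.5% of members and 21.3% of all ISs. Within bins of site GC the shares lay close together. From under 40% to 50 to 55% GC they were 29.4, 41.0, 50.9 and 58.7% of members and 29.4, 42.4, 50.8 and 61.2% of all ISs in the first table. The hairpin table gave 8.95, 17.05, 25.7 and 32.9% of members and 9.26, 16.8, 24.9 and 32.9% of all ISs. The GC limit of the rule keeps GC-rich ISs out of the class, and members had a median GC of 44.7% against 47.3% in the first table and 42.9% against 44.6% in the second. The observed-to-expected ratio of CG dinucleotides had medians of 0.141 and 0.132 in members, against 0.160 and 0.145 in all ISs. Members with the motif had lower control densities than those without it, at medians of 4.28 and 4.41 log2 RPM in WT cells and 2.42 and 2.75 in Rif1KO_shLacZ cells. Their fold changes differed in opposite directions in the tables: the median log2 fold change with and without the motif was 0.029 and 0.097 for Rif1KO against WT, and 0.059 and 0.012 for Rif1KO_shMcm6 against Rif1KO_shLacZ. GC differed alongside, at 46.1% with and 43.5% without the motif in the first table, and 45.9% and 42.2% in the second. The part of GC in these differences was not tested.

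Members made up a density of 11.2 ISs per Mb of eligible sequence in the first table, where eligible sequence is the part of the class outside exons, assembly gaps and the 10 kb around each TSS. Introns of genes under 100 kb had 11.7 per Mb, introns of genes of 100 to 300 kb had 12.9, and intergenic sequence had 13.1, all under the same limits on GC and TSS distance. In the hairpin table the values were 44.2 per Mb for members, 34.3 and 43.3 for the shorter genes and 53.4 for intergenic sequence. The order of the classes thus differed between tables: very long genes had fewer ISs per Mb than genes under 100 kb in the first table and more in the hairpin table. The middle of neighbouring members in a gene lay a median of 21.6 kb apart in the first table and 8.41 kb in the second. Gaps shorter than 10 kb made up 24.6% of all gaps in the first table and 58.2% in the second. The longest gap between neighbours was 1005 kb in Ctnna2, which encodes alpha-N-catenin of neuronal adhesion, in the first table, and 538 kb in Gabrg3, a GABA-A receptor subunit, in the second. The submitters kept only ISs that fell in clusters, so isolated sites are not among these values.

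The number of members per gene reached 55 in the first table and 125 in the second, with medians of 4 and 18. Genes with many members in the hairpin table were Gm20388 (125), Ptprd (119), Gpc5 (118), Cntnap2 (113), Fgfr2 (81), Nrxn3 (76), and Arfip1, Agbl4 and Lingo2 with 73 each. In the first table the same genes held 55, 13, 51, 13, 20, 6, 25, 19 and 12. Ptprd is a receptor tyrosine phosphatase and Cntnap2 a neurexin-family protein of axons, Nrxn3 is a presynaptic neurexin and Gpc5 a glypican. The annotated spans of Gm20388 (4.43 Mb) and Fgfr2 (3.01 Mb) also enclosed 72 and 31 other protein-coding genes, and that of Arfip1 enclosed 5, so their members are sites of gene-containing regions as much as of 1 gene. Of the 427 genes, 7 enclosed 5 or more other protein-coding genes. Per 100 kb of span, Ksr2, a scaffold of the MAP kinase pathway, had most members in both tables, at 4.87 and 11.2. Gm3739 and Adamts17 were the only genes of the 427 with no member in the hairpin table.

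Most sites of the first table were found again in the second, but not the reverse. In the first table, 1873 of 2338 members (80.1%) overlapped a member of the hairpin table, and 1856 of its 9238 members (20.1%) overlapped one of the first. By the lists of ISs of single conditions, 58.3% of members of the first table overlapped a WT IS, 89.8% a Rif1KO IS, 75.5% a Rif1KO_shLacZ IS and 77.6% a Rif1KO_shMcm6 IS. All 4 lists were overlapped by 37.0% of them, against 40.3% of all ISs on these autosomes. Members of the hairpin table that overlapped a member of the first had a median of 3.32 log2 RPM in Rif1KO_shLacZ cells, and those that did not had 2.56. The median log2 fold change for Rif1KO_shMcm6 against Rif1KO_shLacZ was -0.043 in the overlapping members and 0.041 in the others. The hairpin libraries were deeper and their ISs more numerous in every class, and whether the added members differ from the shared ones for any other reason was not tested.

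Loss of RIF1 was set against WT to see how ISs inside very long genes are used without it. Members were slightly denser in Rif1KO cells, by less than the counting error of a single site. Median densities were 4.34 log2 RPM in WT and 4.41 in Rif1KO cells, whereas all ISs on the same autosomes had 4.45 and 4.44. In WT cells members ran from 2.84 to 6.37 log2 RPM, and in Rif1KO cells from 3.06 to 6.42. The ranges of both conditions overlapped almost entirely. The median log2 fold change of members was 0.070 (95% interval over sites 0.058 to 0.083), against 0.0077 for all ISs on these autosomes, and 61.5% of members were above 0. Members held 5.24% of the reads in ISs in WT cells and 5.47% in Rif1KO cells, a log2 ratio of 0.061 (exact counting interval 0.052 to 0.070). Intergenic ISs had a summed ratio of 0.050 (0.046 to 0.053), and introns of genes under 100 kb had -0.011 (-0.021 to -0.0011).

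At a 1.5-fold threshold 45 members were higher in Rif1KO cells, or 1.92% (Wilson interval 1.44 to 2.57%), against 0.945% of all ISs on the same autosomes. By contrast, 11 members were lower, or 0.470% (0.263 to 0.841%), against 1.35% of all ISs. These Wilson intervals treat sites as independent, although members cluster in genes, and hold no replicate error. By these intervals both shares of members lay outside the background, in opposite directions. Intergenic ISs departed from it in the same directions, with 1.254% higher and 0.567% lower, whereas introns of genes under 100 kb had 0.617% higher and 1.12% lower. Without the lower quartile of density the share of members higher was 0.666% (0.372 to 1.19%), against 0.303% of all ISs under the same limit. With chromosomes 10, 15 and 16 included, 3.56% of members were higher and 1.92% lower, against 2.27% and 2.69% of all ISs. The median counting error of a single member's log2 fold change was 0.24, and the standard deviation over members was 0.245, so most of the spread between single sites was of the size of counting error. None of the 1124 members called in both conditions, whose median was 0.020, was higher by 1.5-fold, and all 45 higher members were among the 976 called in Rif1KO cells only, a class that its own peak calls select for higher Rif1KO density. Over all ISs called in both conditions 7 of 16678 (0.042%) were higher and the median was -0.024. The share of members called in Rif1KO cells only was 41.7%, against 33.3% of all ISs, 40.1% of intergenic ISs and 28.9% of ISs in introns of genes under 100 kb.

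MCM6 depletion was compared within Rif1KO cells to see how a shortage of the helicase alters the same class of sites. The median density of members was 2.70 log2 RPM in Rif1KO_shLacZ and 2.74 in Rif1KO_shMcm6 cells, beside 2.75 and 2.76 for all ISs on these autosomes. Values ran from -0.40 to 5.30 in Rif1KO_shLacZ and from 0.93 to 5.32 in Rif1KO_shMcm6 cells, again with nearly full overlap. The median log2 fold change was 0.019 (0.012 to 0.026), against -0.010 for all ISs. Members took 6.73% of the reads in ISs in the control and 6.87% after depletion, a log2 ratio of 0.031 (0.028 to 0.034). Intergenic ISs had a summed ratio of 0.025 (0.024 to 0.026), and introns of genes under 100 kb had -0.041 (-0.045 to -0.036). The share of members higher by 1.5-fold, 4.86% (449 sites, 4.44 to 5.32%), was near the background of 4.82%. The share lower was 0.953% (88 sites, 0.774 to 1.17%), below the background of 1.5%. Here the spread of single sites, with a standard deviation of 0.31, exceeded the median counting error of 0.17. Of the 449 higher members 358 were called in Rif1KO_shMcm6 cells only, as were 4227 of the 5248 higher ISs over all. Among the 6015 members called in both conditions the median was -0.011, against -0.043 for all ISs called in both.

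**Figure D1:**
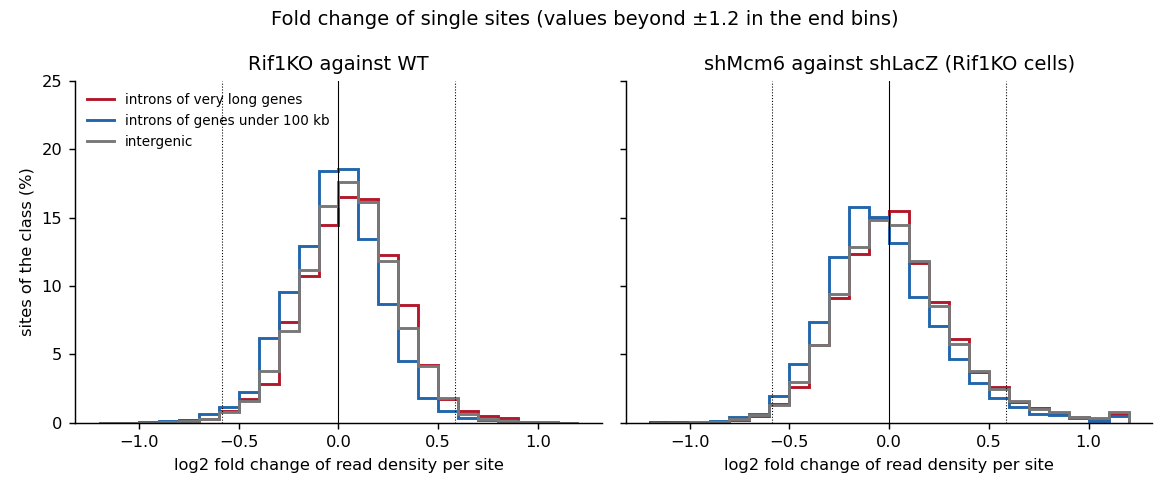
Log2 fold change of read density per site (horizontal) against the percentage of sites of each class (vertical), in bins of 0.1, for introns of very long genes, introns of genes under 100 kb and intergenic ISs, where dotted lines mark 1.5-fold and the end bins hold values beyond 1.2. The curve of very long genes follows the intergenic curve and lies to the right of that of genes under 100 kb in both contrasts, at medians of 0.070, 0.054 and -0.0084 for Rif1KO against WT.

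Set beside other classes, ISs in very long genes resembled intergenic ISs in fold change more than they did intronic ISs of shorter genes. For Rif1KO against WT the median was 0.054 for intergenic ISs, 0.0039 in introns of genes of 100 to 300 kb and -0.0084 in introns of genes under 100 kb. For Rif1KO_shMcm6 against Rif1KO_shLacZ these were 0.012, -0.043 and -0.053. Members had the higher median than introns of genes under 100 kb on 15 of 16 autosomes in each contrast, and than intergenic ISs on 12 of 16 and 9 of 16. In the first table the median of members was below 0 on chromosome 7 only, at -0.047 over 78 sites. In the hairpin contrast it was above 0 on 12 of 16 autosomes and ran from -0.046 to 0.052. A difference between classes has no test here, since each condition has 1 value.

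Within the class the fold change was higher in longer genes in the hairpin table. Members in genes of 300 to 500 kb had a median of -0.00895 (-0.022 to 0.00060), those in genes of 500 kb to 1 Mb had 0.025 (0.013 to 0.037), and those in genes over 1 Mb had 0.066 (0.054 to 0.079), over 4037, 3193 and 2008 sites. The intervals of the classes did not overlap, but they treat sites as independent, and the sites lay in 271, 118 and 36 genes. Over genes, rho between span and ratio was 0.125 in this contrast. In Rif1KO against WT the medians were 0.055, 0.090 and 0.080, with overlapping intervals. GC fell alongside span in the hairpin table, from a median of 43.8% to 42.6% and 41.5%. Position within the gene was also examined. When genes were cut into 5 equal stretches from the 5′ end, medians ran between 0.059 and 0.090 in the first table and between 0.0023 and 0.033 in the second, and each of these 5 stretches held 18.6 to 21.7% of members in the first.

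Site GC and the number of genes nearby went with the fold change. For Rif1KO against WT members with a GC content under 40% had a median log2 fold change of 0.145 (0.117 to 0.164), those of 40 to 45% had 0.102, those of 45 to 50% had 0.034 and those of 50 to 55% had -0.00080. The hairpin contrast gave 0.065, 0.0090, -0.0023 and -0.049 in the same bins. Intergenic ISs had the same order, at 0.131, 0.077, 0.023 and -0.017 in the first contrast and 0.069, -0.012, -0.021 and -0.053 in the second. In every GC bin of both contrasts members had a higher median than introns of genes under 100 kb, with intervals apart in 3 of the 4 bins of the first contrast and in all 4 of the second. With 0 to 2 protein-coding genes starting within 500 kb, where 36.7% of members of the first table and 43.5% of the second lay, members had medians of 0.114 (0.095 to 0.134) and 0.063 (0.055 to 0.071). Intergenic ISs had 0.110 (0.102 to 0.119) and 0.071 (0.066 to 0.075) in this bin, and all ISs outside the class had 0.102 and 0.069. With 11 or more such genes members had -0.019 and -0.070. When ISs with like numbers of genes nearby were compared, members and introns of genes under 100 kb had overlapping intervals in each of the 4 bins of both contrasts. The interval was wide in the poorest bin of the shorter genes, which held 30 sites in the first table and 105 in the second. Introns of genes of 100 to 300 kb, with 120 and 535 sites in that bin, had medians of 0.037 (-0.0034 to 0.081) and 0.012 (-0.012 to 0.047) there, below the intervals of members in both contrasts. Their intervals also lay apart from those of members with 6 to 10 genes nearby in the hairpin contrast, at -0.054 (-0.064 to -0.041) against -0.021 (-0.033 to -0.0057), and overlapped in the remaining bins. The number of genes nearby is bound to gene length, since a very long gene leaves less room for others, and the parts of each in the fold change cannot be told apart here.

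**Figure D2:**
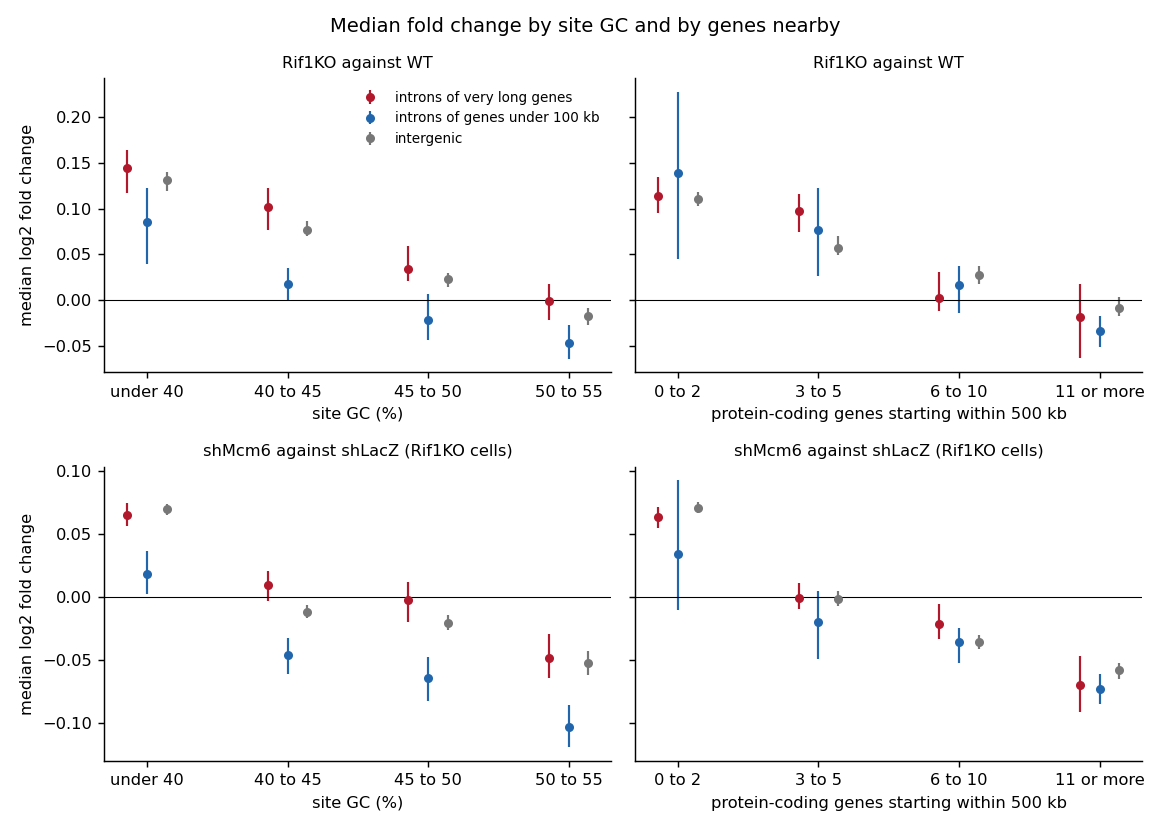
Median log2 fold change (vertical, with 95% intervals over sites as bars) by site GC in percent (left) and by the number of protein-coding genes starting within 500 kb (right), for Rif1KO against WT (top) and Rif1KO_shMcm6 against Rif1KO_shLacZ (bottom). Medians of members fall from 0.145 to -0.00080 with GC in the first contrast, and members lie above genes under 100 kb within GC bins but overlap that class within bins of genes nearby, and genes of 100 to 300 kb, not drawn, lie below members in the bin of 0 to 2 genes, at 0.037 and 0.012 against 0.114 and 0.063.

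The genes of the class were next grouped by function, and the lists used for this were chosen with earlier results of these data known. Neuronal adhesion and axon guidance genes (43 of the 427) had 270 members in the first table and 1421 in the second, or 0.743 and 3.91 per 100 kb. Their summed read density had a log2 ratio of 0.099 (0.071 to 0.127) in the first contrast, and one of 0.090 (0.082 to 0.098) after Mcm6 depletion. Neurotransmitter receptors and ion channels (31 genes) had 209 and 804 members and ratios of 0.099 (0.067 to 0.130) and 0.064 (0.053 to 0.075). Lymphoid transcription factors and signalling genes (18), which a B cell line may express, had ratios of 0.031 (-0.010 to 0.072) and 0.0077 (-0.0091 to 0.024). Genes of broadly expressed cell maintenance (29) had 0.049 (0.013 to 0.085) and -0.021 (-0.035 to -0.0080). Over all 427 genes the ratios were 0.061 and 0.031. Median site log2 fold changes of the first contrast were 0.087 (0.047 to 0.147) for adhesion and 0.106 (0.054 to 0.147) for receptors and channels. The lymphoid list had 0.064 (-0.0084 to 0.1003) and the maintenance list 0.041 (0.0033 to 0.084). The intervals of these lists overlapped. In the hairpin contrast these medians were 0.072, 0.047, -0.028 and -0.028, with both neuronal intervals above the others. The neuronal adhesion list was also the poorest in genes nearby, with a median of 1 within 500 kb against 4 and 3 for all members, and its members had a median GC of 41.4% in the hairpin table against 42.9% for all.

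**Figure D3:**
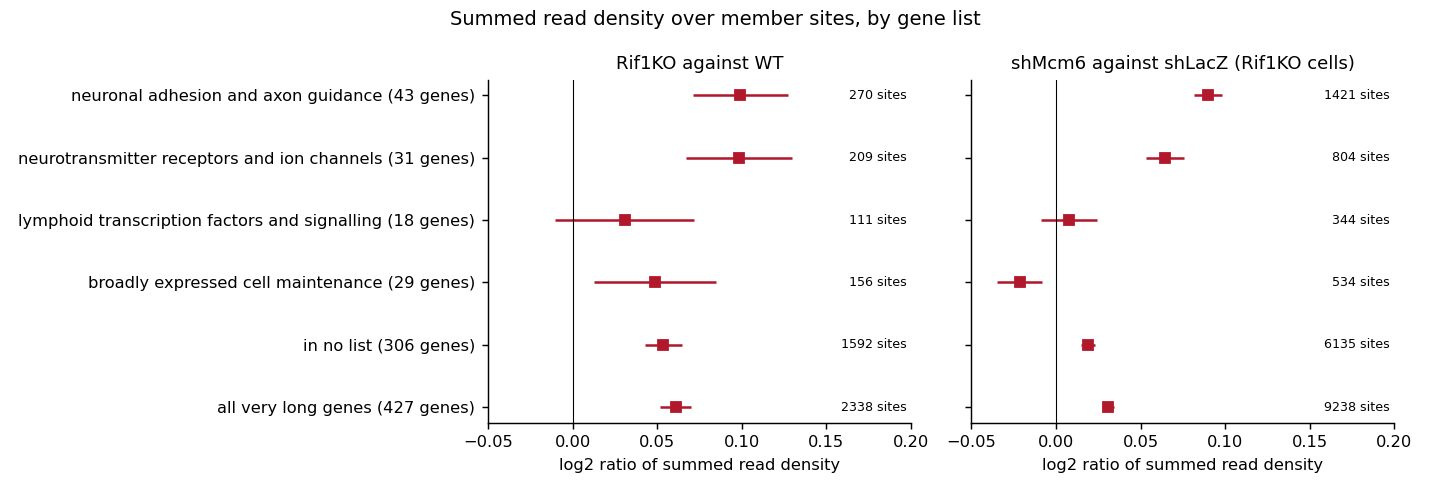
Log2 ratio of read density summed over members (horizontal, with exact 95% counting intervals) for each list of very long genes (vertical), with the number of member sites printed at the right. Both neuronal lists lie above the value for all very long genes, at 0.099 and 0.099 on the left and 0.090 and 0.064 on the right, and the maintenance list is below 0 on the right, at -0.021.

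A gene was counted as higher or lower when the counting interval of its summed ratio lay wholly above or below 0, given at least 5 members and 500 reads. For Rif1KO against WT 198 genes met these limits, and 42 (21.2%) were higher and 6 (3.03%) lower. Of the neuronal adhesion list 9 of 21 genes were higher and 0 lower, and of the receptor and channel list 6 of 21 were higher and 1 lower. The lymphoid list had 2 of 10 higher and 0 lower, and the maintenance list 5 of 14 higher and 1 lower. For the hairpin contrast 409 genes met the limits, of which 135 (33%) were higher and 76 (18.6%) lower. The adhesion list had 28 of 42 higher and 3 lower, and receptors and channels had 15 of 31 higher and 1 lower. The lymphoid list had 3 of 17 higher and 4 lower, and the maintenance list was turned the other way, with 3 of 29 higher and 11 lower. These counts reflect counting error only, and the spread between replicates is not in the pooled values.

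Neuronal adhesion genes gave examples in both tables. Cntnap2 (chr6:45010060-47251368) had a summed density of 196 RPM in WT and 235 RPM in Rif1KO cells over 13 members, a log2 ratio of 0.26 (0.11 to 0.41), with 12 of 13 sites above 0. The hairpin table gave it 719 RPM in Rif1KO_shLacZ and 753 RPM in Rif1KO_shMcm6 cells over 113 members, a ratio of 0.07 (0.03 to 0.10). It had the highest ratio of its list in the first contrast. Ptprd (chr4:75587142-77857865) had 230 and 260 RPM in the first table (0.17, 0.04 to 0.31) and 675 and 766 RPM in the second (0.18, 0.15 to 0.21), where 87 of 119 sites were above 0. Nrg3, which encodes a neuregulin ligand, had 423 and 470 RPM (0.15, 0.05 to 0.26) and 380 and 424 RPM (0.16, 0.12 to 0.20). Cntnap2, Ptprd and Nrg3 were thus higher in the treated condition of both contrasts. Of the 4 genes of the list with most reads in the first table, Nrg3, Pcdh9 and Odz2 were higher in both contrasts. Cdh4, also among them, had 350 and 339 RPM there (-0.04, -0.16 to 0.07), with 3 of 13 members above 0. In the hairpin table Cdh4 had 229 and 234 RPM (0.03, -0.02 to 0.09). Pcdh7, a protocadherin, was the highest of the list in the hairpin table, with 81.7 and 98.2 RPM (0.27, 0.18 to 0.36), and had 116 and 119 RPM in the first (0.05, -0.15 to 0.25). Odz4, a teneurin, was the lowest in the hairpin table, with 175 and 157 RPM (-0.16, -0.22 to -0.09). Odz3 was the lowest in the first table, with 319 and 309 RPM (-0.05, -0.17 to 0.07).

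**Figure D4:**
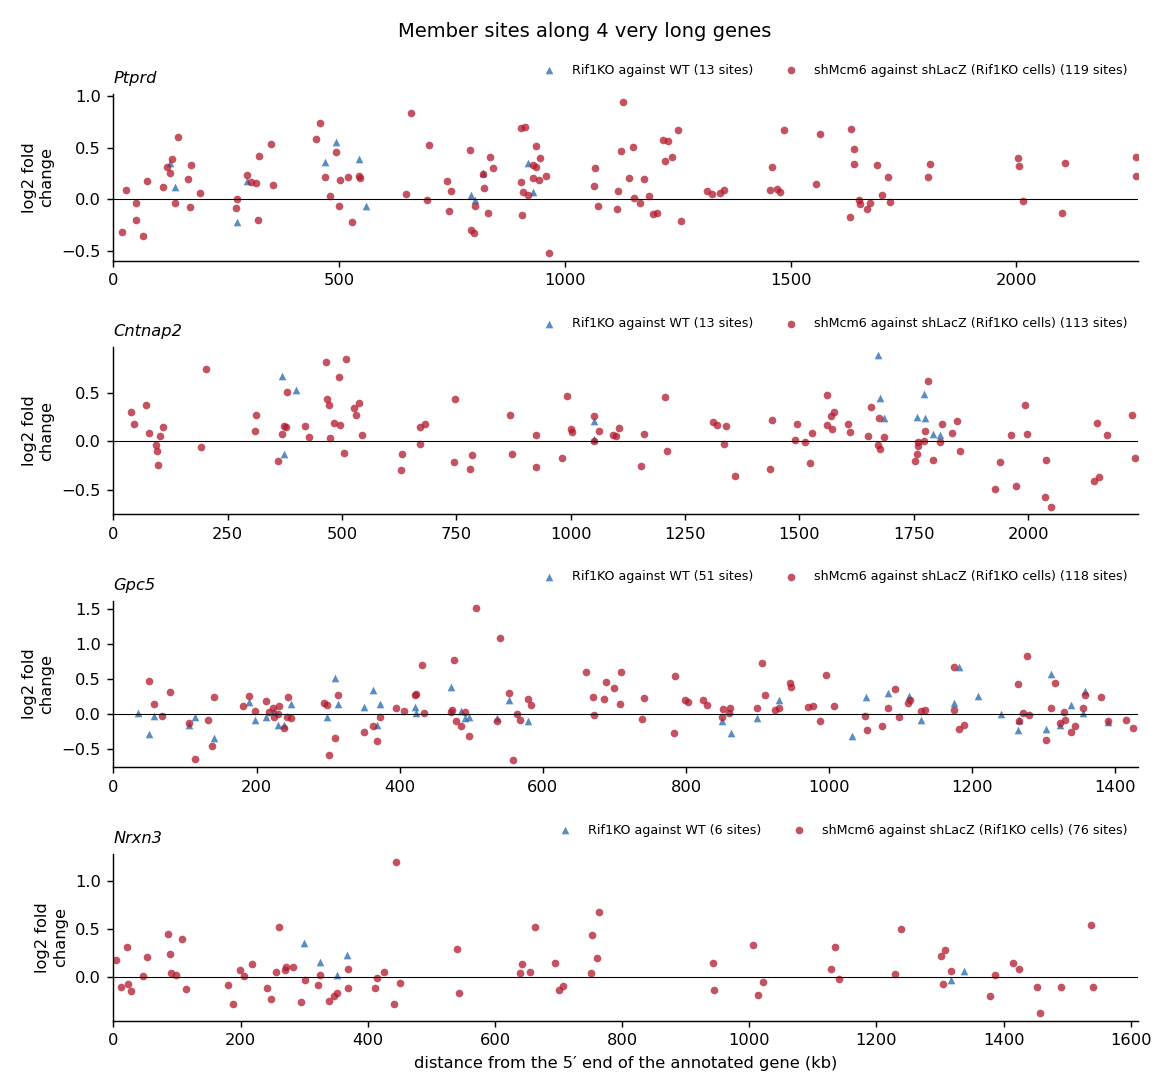
Log2 fold change of each member (vertical) by distance from the 5′ end of the annotated gene in kb (horizontal) for Ptprd, Cntnap2, Gpc5 and Nrxn3, with triangles for Rif1KO against WT and circles for Rif1KO_shMcm6 against Rif1KO_shLacZ. Members of the hairpin table run along whole genes, those of the first table do so in Gpc5 (51 sites), and in Ptprd (13), Cntnap2 (13) and Nrxn3 (6) they sit in a few stretches.

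Along the 4 genes drawn by position, members of Ptprd ranged from -0.52 to 0.95 in log2 fold change in the hairpin table and those of Gpc5 from -0.65 to 1.52. The longest gap between neighbouring members of the first table was 949 kb in Nrxn3, 650 kb in Cntnap2, 231 kb in Ptprd and 271 kb in Gpc5, with the stretches beyond the outermost members not counted. In the hairpin table these gaps were 179, 108, 196 and 76.6 kb. High and low members lay side by side in each of the 4 genes.

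Among receptors and channels, Grm8, a metabotropic glutamate receptor, was highest in the first contrast, with 184 RPM in WT and 219 RPM in Rif1KO cells (0.24, 0.09 to 0.40) and all 9 members above 0. The hairpin values were 181 and 187 RPM (0.05, -0.02 to 0.11). Kcnip1, a modulator of potassium channels, was lowest in the first contrast, with 219 and 197 RPM (-0.16, -0.31 to -0.01). Kcnt2, a sodium-activated potassium channel, was the highest in the hairpin contrast, with 67.4 and 78.4 RPM (0.22, 0.12 to 0.32). Cacna1d, an L-type calcium channel subunit, was the lowest, with 249 and 217 RPM (-0.20, -0.25 to -0.14), although it had 444 and 445 RPM in WT and Rif1KO cells (0.0015, -0.10 to 0.10).

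Lymphoid genes lay on both sides of 0. Dock2, an activator of RAC in leukocytes, was higher in the treated condition of both contrasts, with 329 and 363 RPM (0.14, 0.03 to 0.26) and 217 and 244 RPM (0.17, 0.11 to 0.22), with 9 of 11 and 10 of 20 members above 0. In the hairpin contrast 3 of its members were higher by 1.5-fold and the median over its members was 0.013. Prkcb, the protein kinase C isoform of B cell receptor signalling, had 365 and 351 RPM (-0.06, -0.17 to 0.06) and 219 and 209 RPM (-0.07, -0.13 to -0.01). Rora, a nuclear receptor, was the highest of the list in the hairpin contrast, with 121 and 142 RPM (0.23, 0.15 to 0.30) and 20 of 23 members above 0. Tcf4, which encodes the E protein E2-2, was the lowest, with 50.7 and 41.1 RPM (-0.31, -0.43 to -0.18) and 0 of 6 members above 0, and had 131 and 139 RPM in WT and Rif1KO cells (0.08, -0.10 to 0.27). Ptprg, a receptor tyrosine phosphatase, was the highest in the first contrast, with 79.7 and 98.5 RPM over 5 members (0.31, 0.07 to 0.54).

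In the maintenance list Cdk14, a cyclin-dependent kinase, lay on opposite sides in the contrasts. It had 166 RPM in WT and 206 RPM in Rif1KO cells (0.31, 0.15 to 0.47) with all 11 members above 0, and 185 RPM in Rif1KO_shLacZ and 168 RPM in Rif1KO_shMcm6 cells (-0.14, -0.21 to -0.08) with 7 of 26 above 0. Dpyd, which breaks down pyrimidines, was highest in the hairpin contrast at 282 and 325 RPM (0.20, 0.15 to 0.25). Mad1l1, a spindle checkpoint protein, was lowest there, at 92.3 and 78.0 RPM (-0.24, -0.33 to -0.15), and Cux1, a homeodomain factor, was lowest in the first contrast, at 141 and 121 RPM (-0.22, -0.41 to -0.03).

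Over all genes of the class, the highest ratios of the first contrast were those of Galnt13, a mucin-type glycosyltransferase (74.0 RPM in WT and 102 RPM in Rif1KO cells, 0.46, 0.22 to 0.70), Mapk10, the JNK3 kinase (93.7 and 124 RPM, 0.40, 0.19 to 0.61), and Nkain3, which binds the sodium pump (102 and 129 RPM, 0.34, 0.13 to 0.54). Their members had median GC contents of 37.8, 41.3 and 38.0%. The lowest were Hivep3, a zinc finger factor (182 and 156 RPM, -0.23, -0.39 to -0.06, with 0 of 8 members above 0), Cux1, and Itpr2, the type 2 inositol trisphosphate receptor (195 and 168 RPM, -0.21, -0.37 to -0.05), with 48.2, 46.1 and 50.4% GC. In the hairpin contrast none of the first 3 had an interval away from 0: Galnt13 had 217 and 223 RPM, Mapk10 had 63.1 and 61.8 RPM, and Nkain3 had 233 and 234 RPM. The highest genes of the hairpin contrast were Zfp536, a zinc finger repressor (78.8 and 100 RPM, 0.35, 0.26 to 0.44), Baz2b, a bromodomain protein (43.4 and 54.99 RPM, 0.34, 0.22 to 0.47), and Prex2, a RAC exchange factor (49.2 and 59.6 RPM, 0.28, 0.16 to 0.40). In the first table Zfp536 had 2 members (39.7 and 31.95 RPM, -0.31, -0.68 to 0.05), Baz2b had 3 (73.7 and 61.2 RPM, -0.27, -0.53 to -0.0027), with 0 members of either above 0, and Prex2 had 0 members. The lowest were Fstl4, a follistatin-like protein (66.4 and 52.96 RPM, -0.33, -0.44 to -0.22), Msra, a methionine sulphoxide reductase (70.7 and 56.5 RPM, -0.32, -0.43 to -0.22), and Tcf4.

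**Figure D5:**
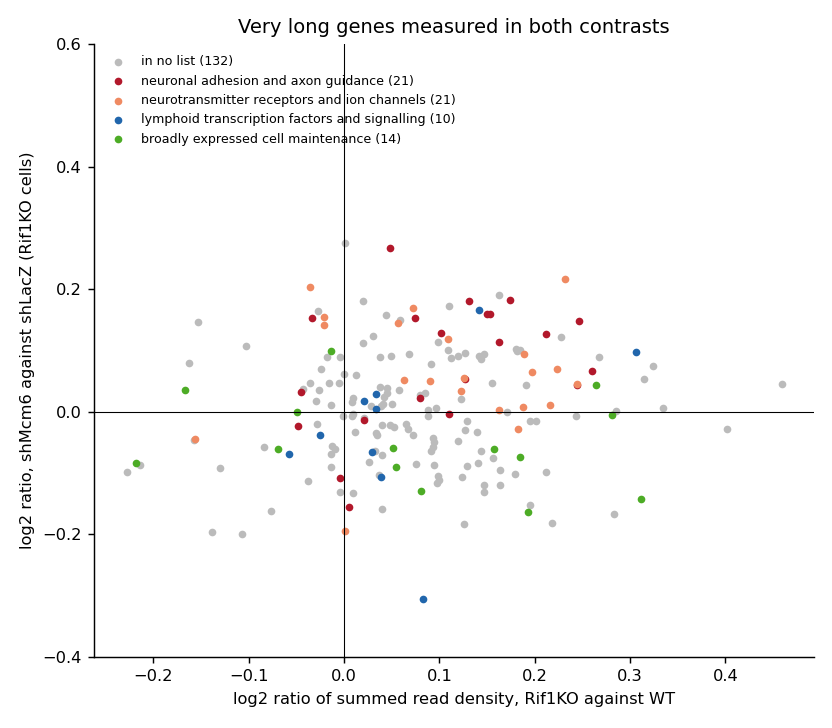
Log2 ratio of summed read density for Rif1KO against WT (horizontal) and for Rif1KO_shMcm6 against Rif1KO_shLacZ (vertical), 1 point per gene, over the 198 genes with enough sites and reads in both tables, coloured by list. Most points lie right of 0 and are spread on both sides of 0 vertically, with 84 genes above 0 in both.

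Both contrasts had no library in common, and gene ratios in 1 contrast went only weakly with those in the other. Across the 198 genes the ratios of both contrasts had a Spearman rho of 0.103 and a Pearson r of 0.103, as a description across genes that share the libraries of a contrast. Of these genes 22 were higher in both, 2 lower in both, 8 higher in the first and lower in the second, and 0 the reverse, among genes that met the limits on members and reads in both tables. In the first contrast 21.2% of the 198 genes were higher and 3.03% lower, and in the second 33% and 18.6% of 409 genes. The overlaps were not tested against these shares. Over 1840 members that overlapped 1 to 1 between tables the rho of fold changes was 0.055. Gene ratios ran from -0.23 to 0.46 in the first contrast and from -0.33 to 0.35 in the second, with 152 of 198 and 250 of 409 above 0. Over genes, rho between median GC and ratio was -0.387 for Rif1KO against WT and -0.234 for the hairpin pair, and rho between gene span and ratio was 0.130 and 0.125.

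Single members with the largest differences were named by rank among those whose mean log2 RPM over both conditions of the contrast was at or above the members' median. Such a rank picks sites that pass through the condition in which they are high: the 3 highest of the first contrast had 4.04 to 4.11 log2 RPM in WT cells, below the members' median of 4.34 there, and those of the second had 1.87 to 2.16 in Rif1KO_shLacZ cells, below 2.70. The 3 lowest of each contrast were likewise below the members' median in Rif1KO or Rif1KO_shMcm6 cells. The sizes are therefore a description of the sites chosen. The Supt3h member (chr17:45083308-45083872, whose centre is printed above) had 55 reads in WT and 100 in Rif1KO cells, or 16.4 and 26.8 RPM, a log2 fold change of 0.71 (0.22 to 1.21). Members in 1700106N22Rik and Gucy1a2 followed at 0.70 and 0.69. All 3 were called in Rif1KO but not in WT cells, and all 3 were also called in both hairpin groups. The Inpp4b member (chr8:84460372-84460960) was the lowest, with 26.6 RPM in WT and 17.2 RPM in Rif1KO cells (-0.63, -1.12 to -0.15), ahead of those in Itpr2 (-0.56) and Gm20388 (-0.54). Reads behind single sites of this table were few, and the intervals were correspondingly wide.

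Chosen in the same way for the hairpin pair, the Dgkb member (chr12:39167930-39168630), in the gene of a diacylglycerol kinase, had 77 reads in Rif1KO_shLacZ and 297 in Rif1KO_shMcm6 cells, or 3.65 and 12.6 RPM, a log2 fold change of 1.78 (1.42 to 2.16). Members in Sdk1, an immunoglobulin-family synaptic adhesion gene, and St6galnac3, a sialyltransferase gene, had 1.48 (1.13 to 1.84) and 1.395 (1.05 to 1.75). All 3 were called in Rif1KO_shMcm6 cells and in none of the other groups. The Dgki member (chr6:37226653-37227299), also in a diacylglycerol kinase gene, had 9.63 and 5.25 RPM (-0.87, -1.21 to -0.55) and was called in Rif1KO_shLacZ cells only. Members in Fstl4 and Arhgap26 had -0.85 and -0.78.

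The densest members differed little between conditions. In the first table that in Gm20388 (chr8:123430080-123430799) had 83.0 RPM in WT and 81.6 RPM in Rif1KO cells (-0.02, -0.26 to 0.22). Its peak was nevertheless called in WT cells and both hairpin groups but not in Rif1KO cells. The members in Slc9a9 and Diap3 had 78.5 and 75.7 RPM (-0.05), and 74.0 and 85.9 RPM (0.21, -0.03 to 0.46). The Slc9a9 member was called in Rif1KO cells and both hairpin groups but not in WT cells. Its densities in WT and Rif1KO cells nevertheless differed by less than counting error. In the hairpin table the member in 4930534B04Rik (chr12:92413089-92415134) had 39.4 and 39.995 RPM (0.02, -0.11 to 0.16), that in Gm20388 had 31.4 and 28.7 RPM, and that in Msi2, an RNA-binding protein gene, had 29.6 and 29.0 RPM. All 3 were called in all 4 groups.

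Values just inside and just outside the limits of the rule were as follows. ISs in genes of 300 to 320 kb had a median log2 fold change of 0.059 for Rif1KO against WT and 0.023 for the hairpin pair, and those in genes of 280 to 300 kb had 0.0037 and -0.043. Members 10 to 15 kb from a TSS had 0.038 and -0.026, and ISs 5 to 10 kb away had 0.058 and -0.015. At 53 to 55% GC the medians were 0.0012 and -0.061, and at 55 to 57% they were -0.051 and -0.061.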

How the data were processed

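SNS-seq libraries were trimmed by the authors with Trim Galore (version 0.6.4, cutadapt 2.6) and aligned to mm9 with Bowtie (1.2.3), keeping unique alignments, so repeats are under-represented. Peaks were called by the authors for each library with MACS, which had no input sample, and they took consensus peaks per condition, kept those in clusters and merged them per contrast. The deposited values are log2 RPM, scaled by the authors to the reads in the ISs of that table, 1 pooled value per condition; how replicates were pooled is not given in the sources used here. Other deposited columns, which carry no density, give the names of the merged peaks, the number of merged replicate peaks and a fold-change category assigned by the authors. This category was not used. Lists of ISs were used for overlap (at least 1 base).

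Whole reads behind each value were recovered for 100% of values (tolerance 0.05 of a read). Fold change is the treated minus the control log2 value. Genes, exons and TSSs came from GENCODE M1 on NCBIM37, the files' build, on which 0 ISs lay past a chromosome end. An IS was assigned to the longest protein-coding gene that held it. Intervals are 95%: Wilson for shares, exact (Clopper-Pearson, conditional on the summed reads) for ratios of reads, and order statistics for medians over sites. They hold no replicate error. Median reads per site were 73 and 82 in WT and Rif1KO, and 141 and 160 in the hairpin groups. Planned count tests across replicates could not be run. Genes named are the 10 with most members, the 3 highest and 3 lowest by summed ratio per contrast, and per list up to 4 with most reads and both extremes; sites named are the 3 highest, 3 lowest and 3 densest per table, and sequences are printed for the first of each and for 1 with the motif. A gene and a sequence that these rules select are not reported here. Ctnna2, Gabrg3, Ksr2 and the genes without a member were named after their values were seen. Members, lists and rules were chosen with earlier results of these data known. Scripts (Python 3.11.15, SciPy 1.17.1) were tested on simulated data.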

Additional observations from a re-analysis of the deposited data

How the results depend on the processing

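Of 92 alternative values of the medians and shares, 58 moved by less than the spread of the value, 33 moved by more and 1 changed sign. The median log2 fold change for Rif1KO against WT, 0.070, was above 0 in all 14 alternatives. It was 0.052 with genes of 200 kb or more, 0.084 with 500 kb or more, 0.090 with GC below 50%, 0.056 with no GC ceiling, 0.054 without the lower quartile of density and 0.020 for members called in both conditions. For Rif1KO_shMcm6 against Rif1KO_shLacZ, main value 0.019, these were 0.0049 and 0.042 for the spans, 0.028 for GC below 50% and 0.0063 without the lower quartile, and 0.030 when centred on the median of all ISs. Among members called in both conditions it changed sign, at -0.011.

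The share of members higher in Rif1KO cells, 1.92%, was 3.56% with chromosomes 10, 15 and 16 included, where the share lower was 1.92% in place of 0.470%. It was 0.666% without the lower quartile, 0% for members called in both conditions, 0.0428% at 2-fold and 14.3% at a log2 threshold of 0.32. The share lower was 0.178% for members called in both conditions, 0% at 2-fold and 5.18% at 0.32. In the hairpin contrast the share higher, 4.86%, was 5.44% in genes of 500 kb or more, 3.12% without the lower quartile, 3.04% on the log2(RPM + 1) scale, 1.43% when called in both, 0.931% at 2-fold and 15.6% at 0.32. The share lower, 0.953%, was 0.596%, 0.536%, 0.325%, 0.466%, 0.0433% and 8.97% under the same settings, and 0.727% with GC below 50%. Over all ISs the shares higher and lower in the Rif1KO contrast were 2.27% and 2.69% with those chromosomes, 0.303% and 0.938% without the lower quartile, 0.0420% and 0.342% when called in both, 0.0350% and 0.0923% at 2-fold, and 9.49% and 8.91% at 0.32. In the hairpin contrast all ISs had 3.02% and 0.921% without the lower quartile, 2.95% and 0.559% on the log2(RPM + 1) scale, 1.32% and 0.776% when called in both, 0.970% and 0.0514% at 2-fold, and 14.4% and 11.5% at 0.32. A lower fold threshold passes more sites by construction, and the cause of the other shifts was not tested. Leaving out gene models that enclose 5 or more other genes, an alternative chosen after seeing the data, gave medians of 0.075 and 0.022. No paired analysis was possible because the processed tables used here give pooled values only, and leaving out each replicate was not run for the same reason. With a median of 68 reads per member in WT cells, a single site's 1.5-fold difference is little more than 2 counting errors.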
